A study of Mus musculus with 6 samples.

Results

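Bone marrow-derived macrophages that lacked the cohesin subunit RAD21 were compared with wild-type macrophages after 8 h of stimulation with LPS. The comparison rests on all single cells whose names carry the 8 h label of either genotype, with wells of more than 25000 UMIs (unique molecular identifiers, each counting 1 captured transcript) left out. This gave 222 Rad21-/- and 253 wild-type cells, or 475 of the 1362 cells of the series. Cells were cultured from mouse bone marrow, sorted singly into wells and profiled by MARS-seq, which captures the 3′ end of polyadenylated transcripts. All mice carried a Rosa26-ERt2Cre transgene, a Cre recombinase that becomes active with tamoxifen, on a mixed background of C57BL/6 and another mouse strain. The Rad21-/- cells were Rad21 lox/lox and the wild-type cells Rad21 WT/WT, and both were given 4-OHT (an active form of tamoxifen) during differentiation and then LPS at 10 ng/ml, so that Cre and 4-OHT were common to the 2 groups. Each genotype is a single sample at this time point. There is no replicate check on any difference between them, no test was run, and intervals are exact at 95% and cover counting error only.

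Cohesin is a ring-shaped complex that holds sister chromatids together in dividing cells and forms chromatin loops in all cells, with RAD21 as the subunit that closes the ring. Loops are thought to bring enhancers near promoters, and inducible genes often depend on distal enhancers. LPS is a bacterial cell wall component that is sensed by Toll-like receptor 4. It first induces NF-κB and MAP kinase target genes and then, through secreted type I interferon, the interferon target genes that make up most of the late response.

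Rad21 itself was detected in 18.2% of wild-type cells (interval 13.6 to 23.5) and in 5.41% of Rad21-/- cells (2.82 to 9.25), at 34.1 and 6.92 CPM (UMIs of a gene per 1000000 UMIs of all genes, summed over the cells of a sample). It was lower in Rad21-/- cells in each of the 6 library pools with 10 or more cells per genotype, by a log2 ratio that ranged from -3.98 to -0.67 for Rad21. Of the other 2 pools at 8 h, which held 8 and 5 Rad21-/- cells, the second had Rad21 UMIs in 2 of 5 Rad21-/- cells and Rad21 was higher there (56.98 against 31.4 CPM). The cells labelled Rad21-/- in these 2 pools also sat in wells numbered 21 to 93, whereas in the other pools wells up to 92 held wild-type cells and wells from 97 held Rad21-/- cells. Summed over the LPS-inducible genes described below, these 2 pools had log2 ratios of -0.98 and -1.02, within the range of the other 6 (-1.095 to -0.92). Without these 13 cells, 307 genes were at least 2-fold lower and 300 at least 2-fold higher, in place of 305 and 310. Other subunits and partners of cohesin differed by less. Ctcf had 202 CPM in wild-type and 178.1 CPM in Rad21-/- cells, Smc3 46.9 and 55.9 CPM, and Stag1 63.6 and 92.2 CPM, and none of the 8 cohesin genes with enough UMIs reached 2-fold. Stag1 was higher in every pool (log2 0.54, interval 0.17 to 0.91).

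Both samples had the profile of macrophages. All 12 macrophage markers were present and together made up 13650 CPM in wild-type and 15650 CPM in Rad21-/- cells. Summed markers of T and NK cells, neutrophils, eosinophils, osteoclasts and fibroblasts each stayed below 50 CPM in both. The matrix held 4 of 12, 2 of 12, 2 of 8, 6 of 10 and 9 of 12 of these markers in that order. Markers absent from it could not add to a sum. Dendritic cell markers summed to 1808 and 1247 CPM, mast cell markers to 112 and 73.8 CPM, and erythroid and megakaryocyte markers to 202 and 311 CPM. Most of the first sum was Bst2, an LPS-inducible gene of the study (1569 and 1039 CPM), and most of the last was Pf4 (194 and 303 CPM). The cells differed in depth, with a median of 5780 UMIs and 2515 genes per wild-type cell and 7043 UMIs and 3154 genes per Rad21-/- cell, and the part of this in the CPM values was not tested beyond the alternatives given at the end. The samples held 1556036 and 1734640 UMIs, and no cell barcode was shared between them.

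Ratios are given for the 5312 genes with at least 100 UMIs over both samples, as the log2 of CPM in Rad21-/- over wild-type cells. Over these genes the median log2 ratio was 0.19. The LPS-inducible genes took up 15.1% of the UMIs of the median wild-type cell and 7.21% of those of the median Rad21-/- cell. A list median is best read against 0.19, the median of all measured genes. At least 2-fold lower in Rad21-/- cells were 305 genes (5.74%), and 277 of them were lower in every one of the 6 pools (5.21% of all genes, where 10.4% were lower in every pool by any size). At least 2-fold higher were 310 genes (5.84%), of which 239 were higher in every pool (4.5% of all genes, where 18.9% were higher in every pool by any size). With CPM scaled so that the median gene is unchanged, the same threshold gave 419 lower genes and a smaller number of higher genes (2.77% of those measured), scaling to the genes outside the inducible list gave 372 and 200, and UMIs per cell gave 193 lower and 872 higher genes. UMIs per cell added 0.35 to every log2 ratio, which turns ratios below 0 of a smaller size positive, and centring on the median gene took 0.19 off. The genes at the threshold were Irg1 (2906 against 1449 CPM) just inside and Olfr56 (378 against 189 CPM) just outside on the lower side, and Mat2a (47.6 against 95.1 CPM) and Nagk (30.8 against 61.7 CPM) on the higher side.

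**Figure D1:**
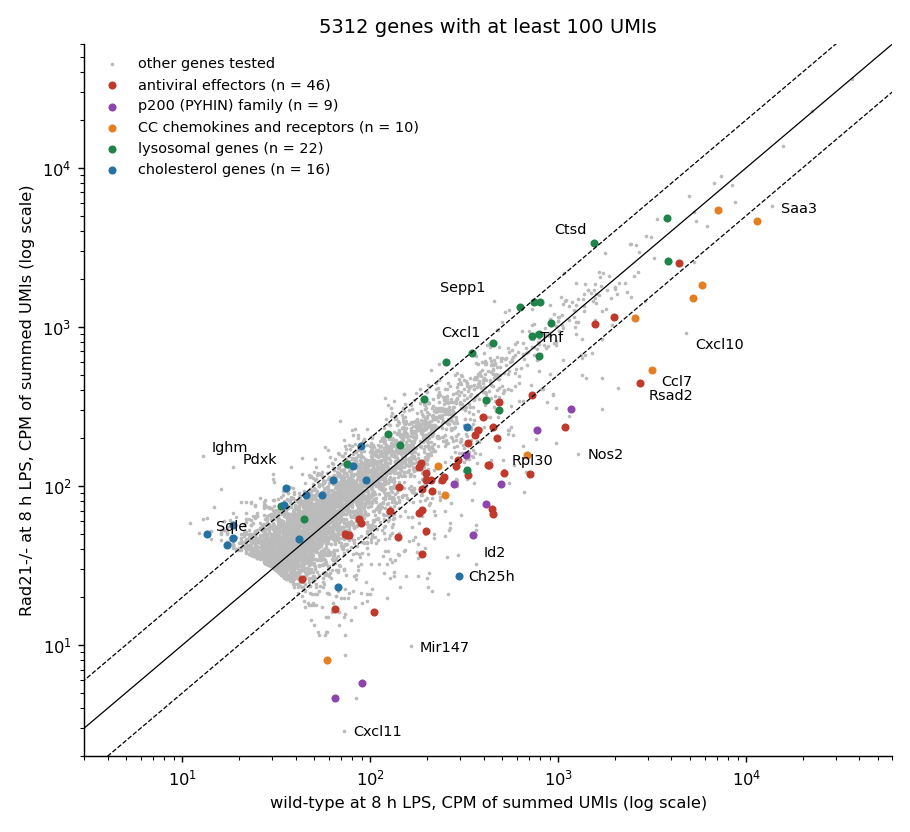
Level of each of the 5312 genes with at least 100 UMIs in wild-type (x axis) and Rad21-/- cells (y axis) at 8 h of LPS, in CPM of summed UMIs on log scales, with equality as a solid line, 2-fold as dashed lines and 5 gene lists in colour. Antiviral, p200 and CC chemokine and receptor genes lie below the solid line and most lysosomal and cholesterol genes above it, with Cxcl11 at 72.6 and 2.88 CPM and Ighm at 12.9 and 153.9 CPM among the farthest.

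The 356 inducible genes of the study, in its 6 kinetic classes, were chosen by the study in part on these libraries and are no independent evidence of a direction. They held 144 of the 305 lower genes and 2 of the 310 higher genes. Of the 320 that had enough UMIs, 45% were at least 2-fold lower, against 3.23% of the 4992 other genes. Their median log2 ratio was -0.87. By class it was -1.20 in E and -1.14 in F, the late classes, -0.91 in D, -0.64 in A1+2, -0.42 in C and -0.03 in B, and 44 of 76, 35 of 60, 28 of 59, 13 of 27, 21 of 75 and 3 of 23 genes were at least 2-fold lower in that order. The 2 inducible genes that were at least 2-fold higher both belonged to class C. They were Gpr84, a receptor for medium-chain fatty acids (79.7 against 225 CPM, interval of the log2 ratio 1.21 to 1.80), and Mapkapk2, a kinase downstream of p38 that stabilizes inflammatory mRNAs (504 against 1076 CPM, 1.09). Both were higher in every pool.

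The interferon response was lower at 8 h, and some of its lists were lower before LPS too, as given further below. Ifnb1, which encodes interferon beta, had no UMI in either sample at 8 h, which allows up to 1.93 CPM in wild-type and 1.73 CPM in Rad21-/- cells. All 16 measured genes of the type I interferon pathway were lower, 9 of them in every pool and 5 at least 2-fold, with a median log2 ratio of -0.78. The transcription factor Irf7 had 871 CPM in wild-type and 337 CPM in Rad21-/- cells (log2 -1.37, interval -1.51 to -1.23). Jak2, a cytokine receptor kinase, went from 167 to 63.4 CPM and Stat2 from 194 to 81.9 CPM, both more than 2-fold. The feedback inhibitor Usp18, which is itself interferon-induced, was at 349 and 153.9 CPM.

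All 46 antiviral effector genes were lower in Rad21-/- cells, 41 of them in every pool and 21 at least 2-fold, with a median log2 ratio of -0.97. Rsad2, which encodes viperin, a nucleotide-modifying enzyme that blocks viral replication, had 2722 CPM in wild-type and 442 CPM in Rad21-/- cells (-2.62, interval -2.74 to -2.51). Rsad2 lay between 2055 and 3052 CPM in the 6 wild-type pools and between 303 and 521 CPM in the Rad21-/- pools, so that the pools of the 2 genotypes did not overlap, which held with Rad21-/- lower for 4.93% of all genes. Cmpk2, a mitochondrial nucleotide kinase that lies beside Rsad2, was at 446 and 72.1 CPM, Oasl1 at 447 and 66.3 CPM and Slfn1 at 104.8 and 16.1 CPM. Ifit1, a sensor of viral RNA caps, was at 512 and 120 CPM (-2.09). The member with the smallest difference had a log2 ratio of -0.42.

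The p200 or PYHIN family, nuclear and cytosolic DNA-binding proteins encoded side by side on chromosome 1, was the gene list with the lowest median. All 9 measured members were at least 2-fold lower and lower in every pool, with a median log2 ratio of -2.26. Pydc4 had 90.6 CPM in wild-type and 5.76 CPM in Rad21-/- cells (-3.97, interval -5.07 to -3.05) and Pydc3 64.9 and 4.61 CPM (-3.81). Pyhin1 was at 352 and 49 CPM (-2.84), Ifi205 at 413 and 76.7 CPM (-2.43), and Ifi202b was the least changed at 324 and 157 CPM (-1.05). These members resemble each other in sequence, so reads may have been shared among them, and Pydc3 and Pydc4 in particular cannot be kept apart with certainty. Over the family, the median wild-type cell spent 0.377% of its UMIs and the median Rad21-/- cell 0.081%.

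The genes span chr1:173566280-174031755 (GRCm38), and RefSeq promoter windows of build GRCm38.p6 were found for 8 of the 9. In 6 of the 8, the 250 bases before the start held, on either strand, GAAA repeated after any 2 bases, the core of the interferon-stimulated response element. The stretches around every match are shown so that their flanks can be compared, with the 10 matched bases in capitals and 20 bases on each side, read on the strand of the gene. Mndal has windows before 2 annotated starts, with 1 match in each. Positions are chr1:173599316-173599365 for Pydc4, chr1:173673587-173673636 for Pydc3, chr1:174031860-174031909 for Ifi205, chr1:173913054-173913103 for Mnda, chr1:173880194-173880243 and chr1:173879983-173880032 for the 2 matches of Mndal and chr1:173942498-173942547 for Ifi203, all on the minus strand apart from Pydc3.
Pydc4: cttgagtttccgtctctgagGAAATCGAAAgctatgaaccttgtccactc
Pydc3: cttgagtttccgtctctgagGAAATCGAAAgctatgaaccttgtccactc
Ifi205: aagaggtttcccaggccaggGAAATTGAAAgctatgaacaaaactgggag
Mnda: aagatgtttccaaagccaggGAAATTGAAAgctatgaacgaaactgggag
Mndal, first match: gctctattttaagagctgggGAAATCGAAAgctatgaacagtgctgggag
Mndal, second match: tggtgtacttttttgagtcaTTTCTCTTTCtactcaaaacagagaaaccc
Ifi203: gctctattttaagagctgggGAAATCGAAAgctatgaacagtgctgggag

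The first match of Mndal and those of the other 5 genes share gctatgaac after the matched bases, and the second match of Mndal, which reads on the opposite strand, has other flanks.

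The same letters were found in 19.7% of the genes that were at least 2-fold lower (46 of 234 with a promoter window), in 2.22% of those at least 2-fold higher (5 of 225) and in 4.62% of all measured genes (165 of 3571). Among inducible genes it was 28.4% of those at least 2-fold lower and 7.14% of the rest. An NF-κB motif, GGGA, any base and TTTCC on either strand, stood in 1.72% of the former and 4.29% of the latter, a difference between 2 and 6 genes. Over all 32851 promoter windows of this length the shares were 2.98% for the first motif and 0.356% for the second. These count each window once, whereas a gene with several windows is counted above if any of them holds the motif. Other letters were scanned too. TATAAA, the TATA box, stood in 15.4% of the genes at least 2-fold lower, 4.44% of those at least 2-fold higher and 8.77% of all measured genes. A match is a description of the sequence, and binding was not measured in these data. As examples outside the p200 family, the 250 bases before the starts of Cxcl10 (chr5:92348890-92349139, minus strand), Rsad2 (chr12:26456453-26456702, minus strand) and Il6 (chr5:30012864-30013113, plus strand) are given, with the interferon motif in capitals in the first 2 and the NF-κB motif in capitals in Il6.
Cxcl10: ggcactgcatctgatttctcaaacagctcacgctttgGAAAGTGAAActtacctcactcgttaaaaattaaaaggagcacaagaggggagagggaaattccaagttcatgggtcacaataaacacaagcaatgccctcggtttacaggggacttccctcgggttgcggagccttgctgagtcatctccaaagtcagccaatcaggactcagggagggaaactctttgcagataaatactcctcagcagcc
Rsad2: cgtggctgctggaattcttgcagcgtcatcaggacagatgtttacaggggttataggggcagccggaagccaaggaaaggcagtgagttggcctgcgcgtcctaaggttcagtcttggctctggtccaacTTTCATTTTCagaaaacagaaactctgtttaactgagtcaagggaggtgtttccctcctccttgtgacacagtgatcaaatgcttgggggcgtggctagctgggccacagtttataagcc
Il6: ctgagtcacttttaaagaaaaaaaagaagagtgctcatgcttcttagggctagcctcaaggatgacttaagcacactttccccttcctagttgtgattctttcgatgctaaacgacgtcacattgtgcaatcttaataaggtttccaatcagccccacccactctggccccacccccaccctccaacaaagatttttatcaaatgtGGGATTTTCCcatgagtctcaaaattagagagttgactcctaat

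Interferon-inducible GTPases, which attack the vacuoles of intracellular pathogens, were lower in all 11 measured cases and in every pool, 9 of them at least 2-fold (median log2 ratio -1.66). Iigp1 had 256 CPM in wild-type and 35.7 CPM in Rad21-/- cells, Gbp9 99.0 and 20.8 CPM, and Irgm2 249 and 69.2 CPM. The MHC class I pathway, which presents peptides to CD8 T cells, had a median log2 ratio of -0.81, with 7 of 18 genes at least 2-fold lower. The non-classical heavy chain H2-Q7 was at 131.1 and 33.4 CPM and the peptide transporter Tap1 at 231 and 89.9 CPM. The common light chain B2m, whose annotation overlaps that of Patl2, was at 5267 and 2557 CPM (-1.04), while the classical heavy chains H2-K1 and H2-D1 were at log2 ratios of -0.24 and -0.17 and were higher in 1 of the 6 pools each. Class I genes are close relatives of one another, and reads of H2-T22 and H2-T23 may overlap a non-coding gene annotated at both.

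**Figure D2:**
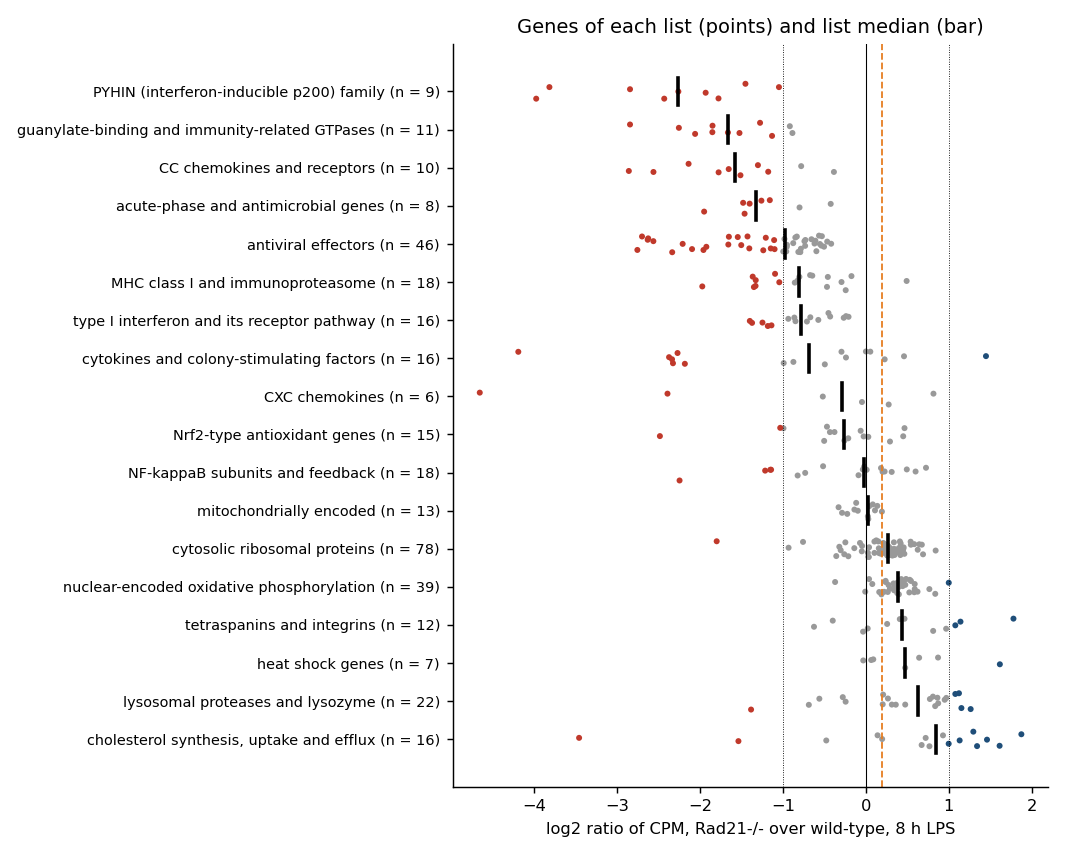
Log2 ratio of CPM, Rad21-/- over wild-type cells, of the genes of 18 lists at 8 h of LPS, each point 1 gene with at least 100 UMIs, in red at or below -1, in blue at or above 1, with a black bar at the list median and an orange dashed line at 0.19, the median of all 5312 genes. Medians run from -2.26 in the p200 family to 0.85 in the cholesterol genes, and all points of the first 5 lists lie below 0.

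CC chemokines recruit monocytes and T cells. The list of CC chemokines and their receptors was lower as a group, with 8 of 10 measured genes (9 chemokines and the receptor-like Ccrl2) at least 2-fold lower, 9 lower in every pool and a median log2 ratio of -1.58. Ccl5 was the most abundant of them, with 11387 CPM in wild-type and 4624 CPM in Rad21-/- cells (-1.30). Ccl7 was at 3145 and 533 CPM (-2.56, interval -2.66 to -2.46), Ccl12 at 684 and 155.7 CPM, Ccl4 at 5220 and 1526 CPM and Ccl8 at 58.5 and 8.07 CPM. The other 2 were Ccl3 (7080 and 5426 CPM, -0.38), whose annotation overlaps that of Ccl4, and Ccrl2 (229 and 133.8 CPM, -0.78, lower in 5 of 6 pools), which was named after its values were seen. The genes of the list made up 3.54% of the UMIs of the median wild-type cell, from 0.895% to 7.82%, and 1.36% of the median Rad21-/- cell, from 0.172% to 4.97%. In 96.4% of Rad21-/- cells the value lay below the wild-type median.

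CXC chemokines split. Those that interferon induces and that attract T cells through CXCR3 were lower. Cxcl10 had 4781 CPM in wild-type and 911 CPM in Rad21-/- cells (-2.39, interval -2.47 to -2.31), with pools from 4053 to 5095 CPM and from 707 to 1328 CPM. Cxcl11 was at 72.6 and 2.88 CPM (-4.66, with 5 UMIs in Rad21-/- cells, interval -6.31 to -3.39), the lowest ratio of all 5312 genes. The gene Art3, whose annotation spans both, was at a log2 ratio of -2.38 and may hold their reads. The neutrophil-attracting Cxcl1 was higher, at 444 and 782 CPM (0.82, interval 0.68 to 0.95) and higher in every pool. Cxcl2 stood at -0.05. Cxcl3 stood at -0.52 but was higher in 2 of 6 pools, and its ratio was 0.00 with the deepest wells kept and 0.02 in cells of 4000 to 10000 UMIs.

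Secreted cytokines differed in size and direction, with 6 of 16 measured genes at least 2-fold lower, 1 at least 2-fold higher and a median log2 ratio of -0.68. Csf3, the granulocyte growth factor, had 84.2 CPM in wild-type and 4.61 CPM in Rad21-/- cells, the latter from 8 UMIs (-4.19). Il6 was at 251 and 48.4 CPM (-2.37), the interleukin 1 antagonist Il1rn at 2090 and 414 CPM (-2.34), Il27 at a log2 ratio of -2.18 and the vasoconstrictor Edn1 at 263 and 52.5 CPM. All of these were lower in every pool. Tnf, by contrast, had 744.2 and 745.4 CPM (0.00, interval -0.11 to 0.12), with 4 pools lower and 2 higher, and Il1b had 1375 and 1611 CPM (0.23). Il12b, which encodes the shared subunit of interleukins 12 and 23, was at 150.4 and 122.8 CPM (-0.29, interval -0.57 to -0.02), with pool ratios from -2.35 to 0.55. Its pools overlapped between the genotypes. Tgfb1, an anti-inflammatory cytokine, was the only cytokine at least 2-fold higher in this list of 16, at 82.9 and 227 CPM (1.45), and was higher in every pool.

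NF-κB subunits and their feedback inhibitors differed in direction. The median log2 ratio of the 18 genes was -0.03. The feedback genes Tnfaip3 (A20, 314 and 141 CPM, -1.15), its partner Tnip3 (1510 and 684 CPM, -1.14), Bcl3 (118 and 50.7 CPM, -1.21) and the ubiquitin ligase Peli1 (194.1 and 40.9 CPM, -2.25) were lower in every pool. Nfkb1, Rel and Ikbke were higher in every pool, by log2 ratios of 0.60, 0.50 and 0.73, less than 2-fold, and the counting interval of Rel (-0.004 to 1.005) reached 0. Of the early response genes, Dusp1, a phosphatase that switches off MAP kinases, had 202 CPM in wild-type and 23.1 CPM in Rad21-/- cells (-3.13, interval -3.65 to -2.66). Zfp36, which encodes the mRNA decay factor tristetraprolin, was at 348 and 81.3 CPM, Atf3 at 336 and 148.2 CPM, Prdm1 at 46.9 and 36.3 CPM and Sertad2 at 37.3 and 20.8 CPM. The last 2 had 136 and 94 UMIs in all. Egr2 had 6 UMIs in wild-type cells and none in Rad21-/- cells, too few for a ratio. The co-stimulatory receptor Cd40 did not differ beyond counting error (480 and 498 CPM, interval of the log2 ratio -0.09 to 0.19), whereas the checkpoint ligand Cd274 (548 and 104 CPM) and the self-ligand receptor Slamf7 (675 and 122.2 CPM) were lower by more than 4-fold.

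Of 7 measured genes of nitric oxide, arginine and itaconate metabolism, 3 were at least 2-fold lower and 6 lower in every pool, with a median log2 ratio of -0.84 and the highest at 0.75. Nos2, the inducible nitric oxide synthase, was at 1279.5 CPM in wild-type and 159 CPM in Rad21-/- cells (-3.01, interval -3.20 to -2.83). The pools of Nos2 ranged from 1033 to 1730 CPM in wild-type and from 105.6 to 255 CPM in Rad21-/- cells, and it was detected in 94.5% and 52.7% of cells. Ass1, which regenerates arginine for it, was at 68.1 and 13.3 CPM. Of 7 genes of leukotriene and prostaglandin synthesis, 2 were at least 2-fold lower, and the median log2 ratio was -0.55. These 2, Ptgs2 (cyclooxygenase 2, 654 and 91.7 CPM) and Ptges (205 and 28.2 CPM), which act in turn to make prostaglandin E2, were at log2 ratios of -2.83 and -2.86. Irg1, which makes itaconate, was at -1.004. Of 8 acute-phase and antimicrobial genes, 6 were at least 2-fold lower. Lcn2 (759 and 197 CPM), Cfb (287 and 104 CPM) and Saa3 (13708 and 5731 CPM) were lower in every pool. Saa1 and Saa2 were lower as well, but are near-identical copies whose reads may be shared.

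The lowest ratio among genes with at least 200 UMIs and the same direction in every pool was that of Mir147. It had 165 CPM in wild-type and 9.80 CPM in Rad21-/- cells (256 and 17 UMIs, -4.07, interval -4.87 to -3.36). Its annotation lies inside that of AA467197 on chromosome 2, a gene induced by LPS that had 364 and 52.5 CPM (-2.80), so the reads may be those of the host transcript and the mature microRNA was not measured. Next came Lipg, an endothelial lipase (258 and 20.8 CPM, -3.64), Id2, an inhibitor of helix-loop-helix transcription factors (366 and 32.3 CPM, -3.50), Ch25h, which makes 25-hydroxycholesterol (298 and 27.1 CPM, -3.46), and BC094916 (213 and 21.9 CPM, -3.28). Ch25h varied between pools. In pool 7, with 10 wild-type cells, wild-type cells had 22.5 CPM, against 230 to 486 CPM in the other 5. Id2 had 235 to 468 CPM in the wild-type pools and 7.32 to 48.1 CPM in the Rad21-/- pools.

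**Figure D3:**
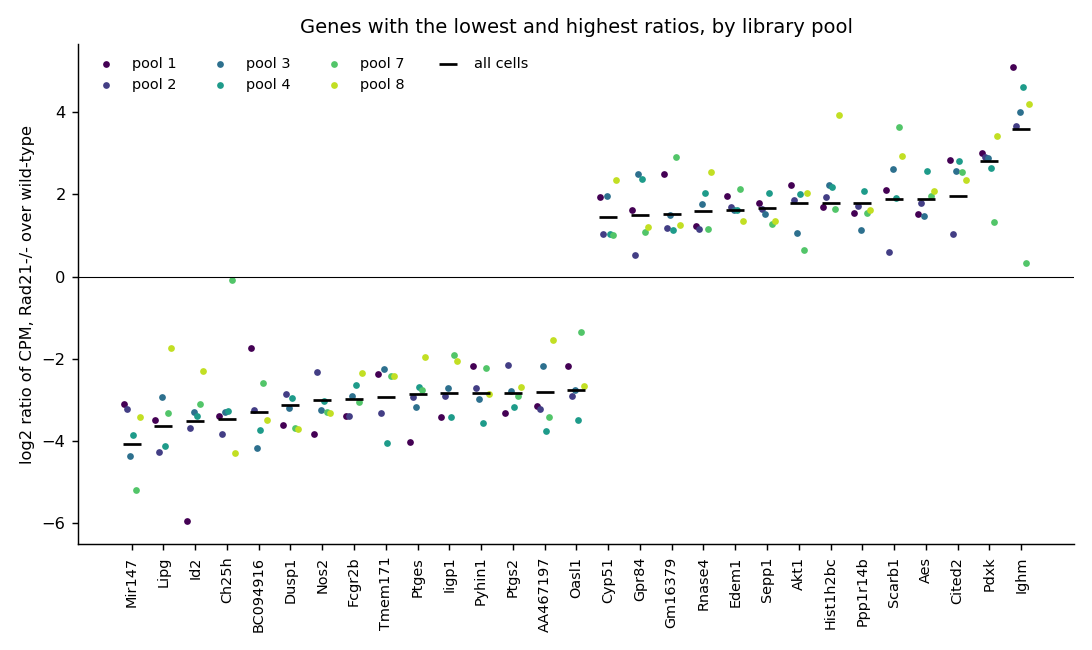
Log2 ratio of CPM, Rad21-/- over wild-type cells, of genes with the lowest and the highest ratios, in each of the 6 pools with at least 10 cells per genotype (coloured points, with a genotype that had no UMI in a pool taken at 3 UMIs) and over all cells (black bar). The direction was a condition of the choice, and the points show the spread, which is widest for Ighm (0.33 to 5.11) and Ch25h (-4.29 to -0.09).

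The genes at least 2-fold lower that were outside the inducible list included 139 that were lower in every pool. Of all such genes with coordinates, whatever their pools, 4 overlapped an inducible gene in the annotation and 7 another lower gene. Among the largest were Fcgr2b, the inhibitory Fc receptor for IgG (292 and 36.9 CPM, -2.98), and Tmem171 (201 and 26.5 CPM, -2.92). Other receptors for IgG, which belong to the inducible list, were lower too, with Fcgr4 at 219 and 46.7 CPM and Fcgr1 at 573 and 208 CPM. The formyl peptide receptors Fpr2 (179.3 and 43.2 CPM) and Fpr1 (82.3 and 27.1 CPM, lower in 5 of 6 pools) are inducible genes as well. The metallothioneins bind zinc and copper. Mt1, outside the list, was at 827 and 405 CPM (-1.03) and Mt2, an inducible gene of class D, at 1698 and 304 CPM (-2.48). The transcription factor Cebpb, an inducible gene of class C that drives myeloid inflammatory genes, was at 971 and 310 CPM (-1.65, interval -1.79 to -1.50), while Spi1, which encodes PU.1, was at -0.06. Members of the Ms4a cluster on chromosome 19, small membrane proteins, differed in size, with Ms4a6d at 584 and 135 CPM (-2.11) and Ms4a4c, an inducible gene of class F, at 513 and 125 CPM, but Ms4a6c at a log2 ratio of -0.03 and Ms4a7 higher at 453 and 617 CPM.

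Neighbours along the chromosome were also counted. Among 4514 measured genes that had coordinates and overlapped no other, 6.07% were at least 2-fold lower. In the order of these genes, which skips unmeasured and overlapping genes and takes no account of distance, 545 positions lay next to a lower gene. Of these, 22.4% held a gene that was at least 2-fold lower itself. A gene with lower genes on both sides is counted at each of these positions. Gene families that lie side by side, such as the p200 genes, are part of this count. For genes at least 2-fold higher, 6.20% of the same 4514 were called. Of the positions beside them, counted in the same way, 5.03% (28 of 557) held a higher gene.

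Genes that were higher without Rad21 lay nearly all outside the inducible list (308 of 310), as did 4992 of the 5312 measured genes. At least 2-fold higher were 6.17% of the genes outside the list and 0.625% of those in it. The highest ratio was that of Ighm, the heavy chain constant region of immunoglobulin M, with 20 UMIs in wild-type and 267 in Rad21-/- cells (12.9 and 153.9 CPM, 3.58, interval 2.93 to 4.32). It was found in 7.91% of wild-type and 41.9% of Rad21-/- cells. The other measured B cell markers were low, with Ebf1 at 33 and 30 UMIs, Ms4a1 at 17 and 19, Pax5 at 7 and 16 and Cd22 at 3 and 3 UMIs. Summed over the 5 of 12 B cell markers that could be analysed, the level was 51.4 CPM in wild-type and 193 CPM in Rad21-/- cells. Their part in the difference was not tested beyond this.

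Pdxk, the kinase that activates vitamin B6, had 18.6 CPM in wild-type and 130.9 CPM in Rad21-/- cells (2.81, interval 2.25 to 3.42). Cited2, a coactivator-binding protein, was at 30.2 and 118 CPM (1.97), the corepressor Aes at 68.8 and 254 CPM (1.89), the HDL receptor Scarb1 at 30.2 and 111 CPM (1.88) and the kinase Akt1 at 30.8 and 106.1 CPM (1.78). The direction in every pool was a condition of this choice. In none of these 5 did the wild-type and Rad21-/- pools overlap, which held with Rad21-/- higher for 5.31% of all genes, the closest being Scarb1 with at most 41.97 CPM in wild-type and at least 63.2 CPM in Rad21-/- pools. Sepp1, a secreted selenium carrier, was the most abundant of the 15 (454 and 1445 CPM, 1.67). Rnase4 was at 119 and 359 CPM, and its annotation overlaps that of Ang, so their reads may be shared. Also among the 15 were Edem1, which marks misfolded proteins in the ER (57.2 and 176 CPM), the histone gene Hist1h2bc (37.9 and 130.9 CPM) and the phosphatase regulator Ppp1r14b (43.1 and 149.9 CPM).

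Lysosomal genes were higher as a group, with 16 of 22 higher in every pool, 4 at least 2-fold higher, 1 at least 2-fold lower and a median log2 ratio of 0.63, which is 0.43 above that of all genes. Of all genes, 18.9% were higher in every pool and 5.84% at least 2-fold higher. Ctsd, the aspartic protease cathepsin D, had 1542 CPM in wild-type and 3362 CPM in Rad21-/- cells (1.12, interval 1.06 to 1.19), with pools from 1224 to 1882 CPM and from 2815 to 4060 CPM. Hexa, which degrades gangliosides, was at 251 and 604 CPM (1.27), Gaa, which degrades glycogen, at 33.4 and 74.4 CPM, and Cd63, a tetraspanin of late endosomes, at 629 and 1329 CPM. Some members went the other way. Ctsc, which activates serine proteases, was at 328 and 126 CPM (-1.38) and Lyz2, lysozyme, at 3822 and 2594 CPM (-0.56), each lower in every pool. Ctss, a cathepsin counted with the MHC class II genes because it trims the invariant chain, was at 1699 and 833 CPM (-1.03). The E-box letters CACGTG stood before 6 of 17 lysosomal genes with a promoter window (35.3%), against 10.9% of all measured genes and 6.02% of all windows. Here too a gene counts if any of its windows holds the letters, and each window counts once. Ctsd held it 2 times, in capitals in the 250 bases before its start, at chr7:142387828-142388077 on the minus strand.
Ctsd: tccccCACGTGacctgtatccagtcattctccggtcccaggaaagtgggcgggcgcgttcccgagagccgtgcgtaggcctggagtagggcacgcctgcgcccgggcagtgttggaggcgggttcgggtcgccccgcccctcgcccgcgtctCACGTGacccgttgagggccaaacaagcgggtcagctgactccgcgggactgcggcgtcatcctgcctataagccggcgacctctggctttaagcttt

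Macrophage receptors differed in direction. Of 20 measured scavenger, phagocytic and Fc receptors, 3 were at least 2-fold higher and 5 at least 2-fold lower, with a median log2 ratio of -0.08, and the lower ones were the Fc and formyl peptide receptors given above. Of 11 measured macrophage markers, 3 were at least 2-fold higher and 1, Fcgr1, lower, with a median of 0.31. Csf1r, the receptor for the growth factor that maintains macrophages, was at 129.2 and 309 CPM (1.26), with wild-type pools from 101 to 141 CPM and Rad21-/- pools from 239 to 405 CPM. Tyrobp, a signalling adaptor, was at 1071 and 2183 CPM (1.03), and Trem2, which pairs with it, at a log2 ratio of 1.08. Cd180, a regulator of LPS sensing, was at 92.5 and 197 CPM, whereas Tlr4 itself was at 45.0 and 21.9 CPM (-1.04, interval -1.65 to -0.45) and its co-receptor Cd14 at a log2 ratio of -0.92, both lower in every pool.

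The transcription factor SREBP2 controls most genes of cholesterol synthesis. The list of cholesterol synthesis, uptake and efflux, with 16 measured genes, had 7 at least 2-fold higher, 2 at least 2-fold lower and a median log2 ratio of 0.85. In every pool 7 were higher and 2 lower, against 18.9% and 10.4% of all genes. The summed level of the list was 1363 CPM in wild-type and 1596 CPM in Rad21-/- cells (log2 0.23). This sum was higher in 4 pools and lower in 2, with log2 ratios from -0.34 to 0.47. Sqle, which commits squalene to sterols, was at 13.5 and 49.6 CPM (1.88, interval 1.18 to 2.64), Cyp51, a sterol demethylase, at 35.3 and 97.4 CPM (1.46), and Srebf1 at 18.6 and 57.1 CPM (1.61). The lower ones were Ch25h, described above, and Abca1, which exports cholesterol (66.8 and 23.1 CPM, -1.54). A sterol regulatory element, ATCAC, any base and CCAC, stood before 0 of the 9 genes of the list with a promoter window. It is rare, with 0.196% of all measured genes. The TATA box letters stood before 4 of the 9.

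Genes of general metabolism differed by less. Of 39 nuclear genes of oxidative phosphorylation, 21 were higher in every pool, against 18.9% of all genes. Of these 39 genes 1, Ndufb4, was at the 2-fold threshold. Their median log2 ratio was 0.39, or 0.20 above that of all genes. Mitochondrially encoded genes had a median of 0.03 and no member passed 2-fold. Cytosolic ribosomal protein genes had a median of 0.27, 0.07 above that of all genes. Of these 78 genes 65 were higher, against 3445 of all 5312 measured genes. Rpl30 and Rpl29 were the 2 that were lower in every pool, Rpl29 at a log2 ratio of -0.93, and Rpl30 was the 1 past 2-fold. Rpl30 was at 507 CPM in wild-type and 146 CPM in Rad21-/- cells (-1.80, interval -2.01 to -1.59), and was detected in 90.5% and 60.4% of cells. The wild-type pools of Rpl30, from 247 to 621 CPM, all lay above its Rad21-/- pools, from 77.4 to 212 CPM. The chaperonin Hspd1 was at 24.4 and 74.9 CPM (1.62). Ribosomal protein genes have processed pseudogene copies, with which reads may be shared.

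Cell by cell, the lists differed in how far the genotypes overlapped. Antiviral effectors made up 2.27% of the UMIs of the median wild-type cell (0.502% to 3.67%) and 0.97% of the median Rad21-/- cell (0.465% to 2.75%), and 99.1% of Rad21-/- cells lay below the wild-type median. For the p200 family this was 98.7% of Rad21-/- cells and for MHC class I genes 98.2%. Lysosomal genes made up 1.64% of the median wild-type cell and 2.14% of the median Rad21-/- cell, with 86.5% of Rad21-/- cells above the wild-type median. For nuclear oxidative phosphorylation genes the medians were 0.754% and 0.987%, with 84.2% above. Cells of a sample are not replicates, and these shares describe the cells of these 2 samples.

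**Figure D4:**
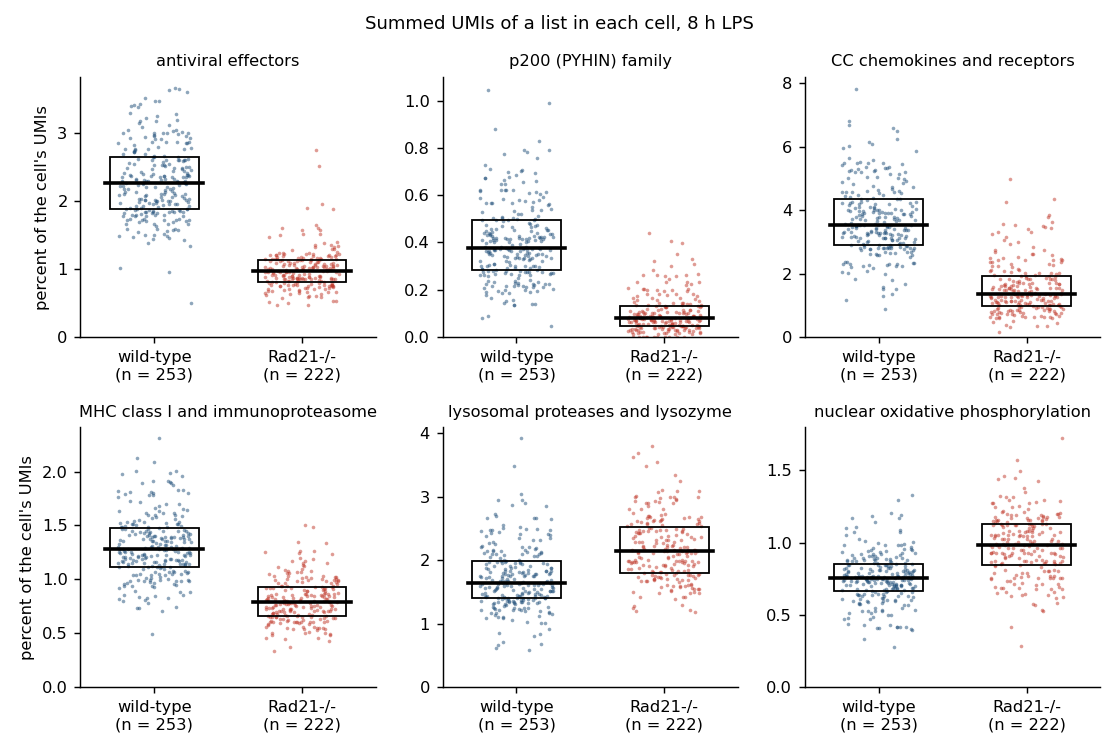
Summed UMIs of 6 gene lists as a percentage of all UMIs of a cell, each point 1 cell at 8 h of LPS, for 253 wild-type and 222 Rad21-/- cells, with the median as a line and the quartiles as a box. In the first 4 panels the Rad21-/- median lies below the wild-type box, and in the last 2 above it.

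Part of these differences was seen in the untreated cells, which are other cells. Of the 305 genes at least 2-fold lower at 8 h, 142 had at least 100 UMIs in untreated cells. Of these, 72 (50.7%) were at least 2-fold lower there, against 3.40% of the 4589 genes measured at both times. Of the 310 genes at least 2-fold higher at 8 h, 279 could be compared. In untreated cells 199 of them were higher, against 2176 of all 4589. At least 2-fold higher there were 22 (7.89%), against 0.763% of all. At 2 h of LPS, 80 of 157 genes (51.0%) were at least 2-fold lower and 47 of 235 (20%) at least 2-fold higher, against 3.84% and 1.99%. Median log2 ratios of lists follow for untreated cells, 2 h and 8 h. Antiviral effectors were at -1.25, -1.02 and -0.97 (31, 29 and 46 genes). CC chemokines and receptors were at -1.98, -1.43 and -1.58 (7, 9 and 10). MHC class I genes were at -0.82, -0.75 and -0.81 (15, 11 and 18). The p200 family was at -0.83, -1.02 and -2.26 (5, 5 and 9). The type I interferon pathway was at -0.54, 0.16 and -0.78 (11, 13 and 16). All genes were at -0.02, 0.06 and 0.19. Rpl30 had 523 and 151 CPM in untreated cells, close to its levels at 8 h, and Sepp1 985 and 3125 CPM. Ighm had 43.6 and 176 CPM. Pdxk was close in untreated cells (203 and 245 CPM) and Cited2 at 2 h (684 and 703 CPM), and both were lower at 8 h in each genotype. Fcgr2b had 49.1 and 23.7 CPM before LPS. Ctsd was at 3978 and 5949 CPM in untreated cells, above its level at 8 h in both genotypes.

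**Figure D5:**
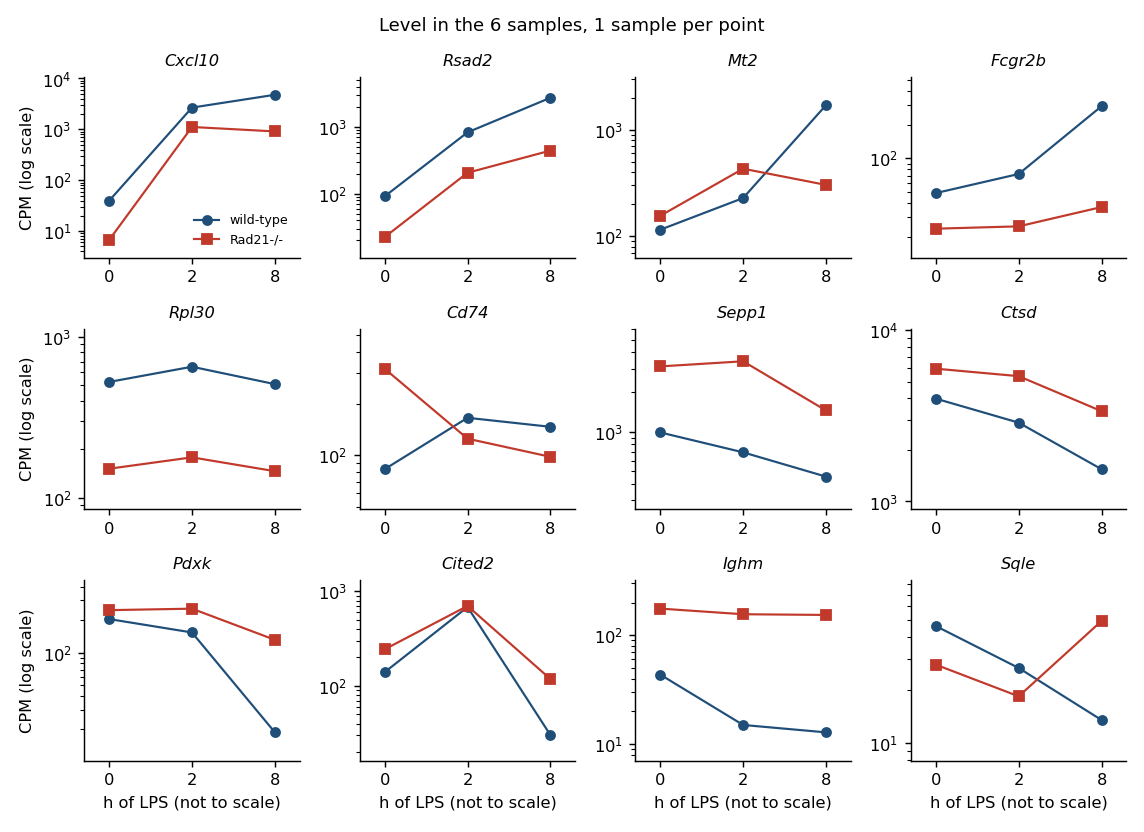
Level of 12 genes named in the text in untreated cells and after 2 and 8 h of LPS, in CPM on log scales, with wild-type as circles and Rad21-/- as squares, 1 sample per point and therefore no error bars. Rpl30 and Sepp1 are apart at all 3 times, Pdxk and Cited2 come apart at 8 h, and the lines of Mt2, Cd74 and Sqle cross.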

How the data were processed

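Single-cell transcriptomes of mouse bone marrow-derived macrophages were measured by MARS-seq. The authors deposited UMI counts per gene and cell, not normalized, after mapping reads with GEMTools to the mouse genome, collapsing UMIs by gene and cell and dropping wells of low quality, per the study's methods. Every cell column used was mapped to a sample by its name, and 0 columns were left unmapped. The matrix held 18429 genes, 31.0% of them detected in less than 5% of cells.

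Cells with more than 25000 UMIs were left out, 4 wild-type and 2 Rad21-/- cells at 8 h, which held 15.1% and 17.0% of the UMIs of their samples. UMIs were summed per sample and divided by the total (CPM). The log2 ratio carries an exact conditional binomial (Clopper-Pearson) interval at 95%, for counting error only, and a count of 0 was given a floor of 3 UMIs per sample. Genes needed 100 UMIs over both samples. With 1 sample per genotype no test was made. Library pools with at least 10 cells per genotype, 6 of 8, served to check direction, and share cultures, so they check library preparation only. For shares of cells with a UMI over the inducible genes, cells were thinned to 4200 UMIs, which kept 205 wild-type and 193 Rad21-/- cells and left out 48 and 29, and the median difference was -13.17 percentage points (-9.489 unthinned). Poisson counts were simulated for 4968 genes of this comparison, with no added spread between cells or pools. Of the true ratios, 95.69% lay inside the interval, which checks the calculation and not the spread in these data.

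Members and lists were chosen with earlier results of these data known. Named were Rad21, the 15 lowest and 15 highest ratios among genes with at least 200 UMIs and 1 direction in every pool, up to 4 genes with the largest ratio per list and class, genes that define a list's role, genes at the threshold, and Il12b, Egr2, Peli1, Prdm1, Ifnb1, Cxcl10, Ifit1, Sertad2, Tnf, Cd40 and Atf3, without a few genes that are not reported here. Mapkapk2, Art3 and the printed promoters were chosen after their values were seen. Promoter windows, 250 bases before the start, are from RefSeq (GRCm38.p6), and 3571 of the 5312 genes had one. Alternatives covered scaling, the UMI minimum, the fold, thinning, weights, deep wells and each pool left out, and 2 more were added after the data were seen (without Rad21-/- cells in wells below 97, and cells of 4000 to 10000 UMIs). Python 3.11.15, numpy 2.4.6, pandas 2.3.3, scipy 1.17.1 and matplotlib 3.10.9 were used.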

Additional observations from a re-analysis of the deposited data

Results flagged for a closer look

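For 6 named genes the log2 ratio at 8 h had the opposite sign to that at another time, with both counting intervals on their own side of 0. Only genes with at least 100 UMIs and a minimum size of the ratio at both times were counted, so smaller reversals are not among the 6. With 1 sample per genotype and time, the difference between times was not tested. Bcl3 was at -1.213 at 8 h and at 1.11 at 2 h, where it had 56.8 CPM in wild-type and 122.6 CPM in Rad21-/- cells. The metallothioneins Mt2 and Mt1 were at -2.483 and -1.031 at 8 h and at 0.91 and 0.86 at 2 h. Cd74, the class II invariant chain, was at -0.5803 at 8 h and at 1.94 in untreated cells, with 83.03 and 319 CPM. At 8 h Cd74 was lower in 4 of 6 pools, and its ratio there turned to 0.096 with all wells kept, so that its sign at 8 h depends on the deepest wells. Jun was at 0.6912 at 8 h and at -1.03 in untreated cells. Sqle was at 1.877 at 8 h and at -0.73 in untreated cells, where it had 46.4 and 27.9 CPM.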

How the results depend on the processing

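No paired analysis was possible because each genotype has 1 sample at 8 h and no result comes from a test. As a percentage of the genes measured, in order lower genes, higher genes, lower in every pool and higher in every pool, the values were 5.74%, 5.84%, 5.21% and 4.5%, and leaving out 1 of 8 pools at a time gave 5.76 to 6.59%, 4.78 to 6.23%, 5.29 to 5.97% and 4.14 to 5.31%. At 1.5-fold they were 11.2%, 19.6%, 8.4% and 11.8% (594, 1042, 446 and 627 genes), and by a counting interval that excluded a ratio of 1 they were 16.7%, 33.9%, 10.0% and 17.3% (887, 1803, 531 and 918 genes). UMIs per cell gave 3.63% lower and 16.4% higher genes (193 and 872). Higher genes, and those higher in every pool, were 2.77% and 2.22% with median-of-ratios scaling, 7.65% and 4.62% from 50 UMIs (660 and 399 of 8632 genes) and 4.26% and 4.01% from 200 UMIs (117 and 110 of 2746). Scaling to genes outside the inducible list gave 3.77% higher genes. The median log2 ratio of the inducible genes, -0.8703, was -0.525 with UMIs per cell, -1.064 with median-of-ratios scaling, -0.9907 with scaling outside the list, -0.9223 with equal weight per pool, -0.9198 in cells of 4000 to 10000 UMIs and -0.9077 to -0.8315 without 1 pool. The median difference in share of cells, -13.17 percentage points after thinning, was -9.489 without thinning, -6.355 from 2 UMIs per cell and -13.36 to -12.5 without 1 pool. Of the named genes whose interval excluded 0, 6 changed sign. They included Cxcl3 (0.004808) and Cd74 (0.09637) with all wells kept. With UMIs per cell the sign changed for the medians of LPS sensing (0.1042), lineage regulators (0.132), p53 targets (0.1414) and antioxidant genes (0.08833) and for mt-Atp6 (0.01768), mt-Co2 (0.05985) and mt-Co1 (0.1225). The ER stress median was -0.02288 with median-of-ratios scaling and -0.07768 from 50 UMIs, and LPS sensing was 0.2364 from 50 and from 200 UMIs. In cells of 4000 to 10000 UMIs, Cxcl3 was at 0.02492, Bid at -0.0539, mt-Atp6 at 0.02021, mt-Co2 at 0.0006027 and mt-Co1 at 0.01736. The cause was not tested. Genes with few UMIs limit what can be seen.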

Other observations

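Cell surface and stress genes outside the groups above also differed, as values with no replicate check. The tetraspanin Cd37 had 23.1 CPM in wild-type and 79.6 CPM in Rad21-/- cells (log2 1.78). Of 12 tetraspanins and integrins 7 were higher in every pool, against 18.9% of all genes. Of 10 p53 targets, 3 were at least 2-fold lower, among them Plk2 (73.3 and 11.5 CPM) and Mdm2 (289 and 108.4 CPM), and 1 at least 2-fold higher, Sesn1 (17.4 and 53.04 CPM). Their median was -0.20 and turned to 0.14 with UMIs per cell. Pfkfb3, a driver of glycolysis, was at 152 and 39.2 CPM, and the intermediate filament gene Vim at 1342 and 635 CPM.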
